A study of Sus scrofa with 20 samples.

Results

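CDO1 encodes cysteine dioxygenase, and it was read on the pig arrays by 1 probe set, the only one of the 23999 tested whose platform gene symbol is CDO1. It was chosen because its signal differed widely between the kidneys compared here, so its own group difference is described and carries no test. Cysteine dioxygenase is an iron enzyme that uses molecular oxygen to oxidise the thiol of cysteine to cysteine sulfinic acid. From there the sulfinate is either decarboxylated to hypotaurine, which is oxidised to taurine, or transaminated to pyruvate and sulfite, which is oxidised to sulfate. The enzyme thereby competes for cysteine with glutathione and coenzyme A synthesis, and in rats and mice it is best known from liver, with expression also in kidney and fat.

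The samples were kidney tissue of 20 pigs, 10 in a neurologic death (ND) group and 10 in a control group, with 1 array for each animal. ND pigs had a burr hole, catheters and anaesthesia, and a balloon catheter under the dura was then inflated until neurologic death was established. Control pigs had the burr hole, the catheters and the anaesthesia, without the balloon. Pigs of both groups were ventilated for 6 h after randomization and were given 0.9% saline in boluses of 2 cc/kg where needed to hold mean arterial pressure above 35 mmHg, so the controls were operated and anaesthetised animals, not untouched ones. Breed, age and sex are not given in the labels used here. The comparison asks how kidney expression after ND and 6 h of ventilation differs from that after the same preparation and ventilation without ND.

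Values are log2 signals as deposited, so a difference of 1 is a doubling of signal. Array medians lay between 5.15 and 5.35 in ND and between 5.09 and 5.28 in controls, with means of 5.27 and 5.18. The control transcript bioB differed the other way, at 9.06 ± 0.23 in ND and 9.42 ± 0.20 in controls (SD, n = 10 each). Of 10 nephron segment markers, LRP2, the endocytic receptor megalin of the proximal tubule, was the only one with a matched probe set, and it was bright on every array, at 12.6 to 14.1 in ND and 13.0 to 13.6 in controls. The 2 arrays Control_02 and Control_134 lacked most of the signal of the spiked control transcript dap, at 2.28 and 2.54, against 6.93 to 8.27 in the 10 ND arrays and 6.05 to 8.15 in the other 8 controls. Animal numbers were not balanced, with 7 of 10 ND animals but 1 of 10 controls numbered up to 100. What the numbers mean is not given in the labels.

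In ND kidneys, named by group and animal number, the CDO1 signal was 2.83 in ND_01, 2.37 in ND_22, 3.31 in ND_31, 2.81 in ND_47, 2.42 in ND_86, 2.33 in ND_92, 3.32 in ND_100, 2.73 in ND_193, 2.44 in ND_194 and 2.39 in ND_198. In control kidneys it was 7.78 in Control_02, 9.07 in Control_134, 9.0 in Control_155, 8.33 in Control_156, 8.29 in Control_157, 9.04 in Control_184, 7.86 in Control_187, 5.81 in Control_190, 8.46 in Control_197 and 9.36 in Control_199. Every ND array was low and every control array was higher, with no overlap, and Control_190 stood between the ND arrays and the other 9 controls. The mean was 2.69 ± 0.38 in ND and 8.30 ± 1.02 in controls (SD, n = 10 each), a difference of −5.61. The gap between the highest ND array and the lowest control was 2.48. In whole tissue, fewer cells of a type that expresses CDO1 and less CDO1 RNA per cell cannot be told apart.

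**Figure D1:**
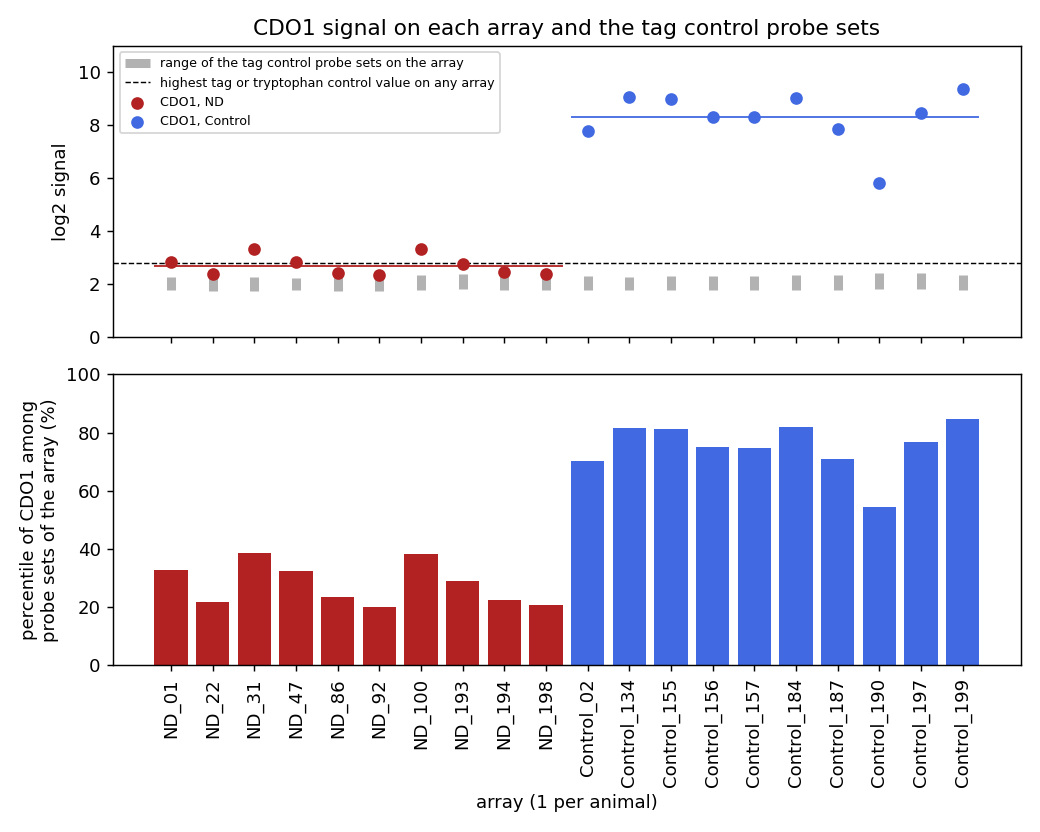
The upper panel plots the CDO1 log2 signal of each array, ND on the left and Control on the right, with group means as lines, the range of the tag control probe sets of each array in grey and the highest tag or tryptophan control value as a dashed line at 2.79. The lower panel gives the percentile of CDO1 among the probe sets of the same array, which lies between 20.2 and 38.6 in ND and between 54.4 and 84.6 in controls.

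The ND signals lay close to what the array reads without a matching transcript. The 17 tag control probe sets, which match no pig RNA, reached at most 2.24 to 2.36 on the ND arrays and 2.28 to 2.41 on the control arrays. CDO1 exceeded the highest tag value of its own array on 10 of 10 ND arrays, by 0.08 to 1.04 with a median of 0.28, and on 10 of 10 control arrays, by 3.39 to 7.01 with a median of 6.04. Against a stricter upper end, the highest value of any tag or of 6 tryptophan control probe sets on any array (2.79), 4 of 10 ND arrays and 10 of 10 control arrays were above background. The 4 ND arrays above it were ND_01, ND_31, ND_47 and ND_100. A signal so near background compresses differences. With the ND values raised to that upper end, the ND mean was 2.90 and the difference −5.40, a 42.1-fold lower signal in ND. This fold is a lower bound for these group means with respect to background only. It makes no allowance for the spread between animals.

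The position of CDO1 within each array put every ND array below every control, as the signal did, without reference to the signal scale. It lay at the percentile 28.0 ± 7.16 of all probe sets in ND and 75.1 ± 8.75 in controls (SD, n = 10 each). Probe sets differ in how strongly they bind, so this percentile is a place on the array and not an abundance.

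Few probe sets were above background in every control and at background in most ND kidneys, and most of these were not bright in controls. Above background on all 10 controls and at or under it on 6 or more ND arrays were 47 probe sets, and CDO1 was the only one of them whose lowest control was above 5. MRPL35, next after the 4 largest differences among the 47, averaged 2.80 in ND and 2.98 in controls, a difference of −0.17. The reverse pattern, above background on all 10 ND arrays and at or under it on 6 or more controls, held for 3 probe sets. The highest tag value averaged 2.28 on ND arrays and 2.33 on control arrays, so the floor lay slightly higher in controls under the same fixed cut. The part of this in the counts of 47 and 3 was not tested. Limma called 1712 of the 23999 probe sets (7.13%), 799 lower in ND (3.33%) and 913 higher (3.8%). All ND arrays lay below all controls for 70 of the 23999 probe sets (0.292%). Ranked by the gap between the lowest control and the highest ND array, CDO1 was at place 4, after 3 probe sets with gaps of 4.04, 3.98 and 3.60, none of which has a gene symbol here. It had the widest gap of the genes with a symbol. These ranks restate the contrast that chose CDO1.

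The 6 genes with the next widest gaps were FKBP5, TSC22D3, USP2, PER1, ARG2 and KLF9. FKBP5, TSC22D3 (GILZ), PER1 and KLF9 are known as glucocorticoid-induced genes in human and mouse cells, USP2 encodes a ubiquitin-specific protease and ARG2 the mitochondrial arginase. Their differences were −3.32 for FKBP5, −2.26 for TSC22D3, −2.19 for USP2, −2.56 for PER1, −2.39 for ARG2 and −2.51 for KLF9, all smaller than that of CDO1. For FKBP5, ND arrays lay between 8.32 and 9.40 with a median of 8.85, and control arrays between 11.8 and 12.5 with a median of 12.2. FKBP5 therefore stayed well above background in every ND kidney, which CDO1 did not. These genes were picked by the same contrast, so no test is attached to their differences.

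**Figure D2:**
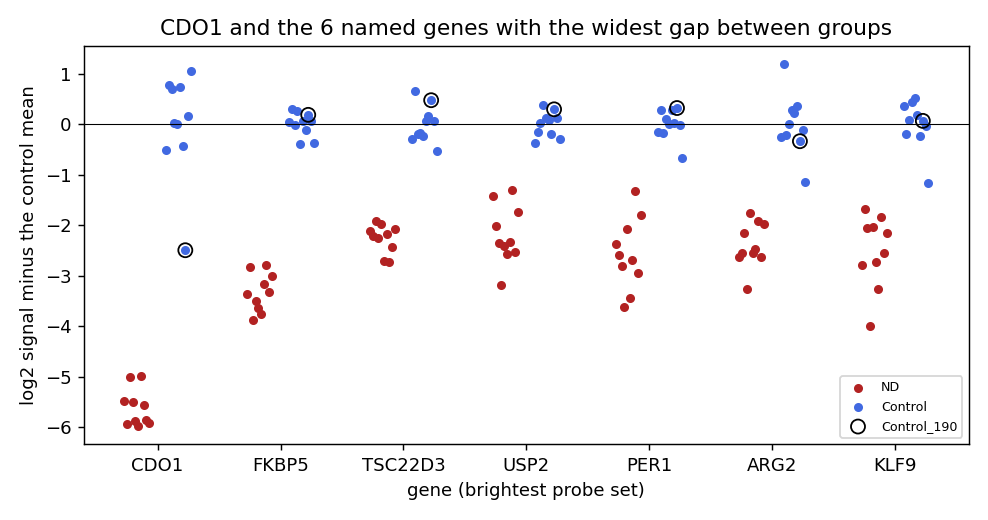
Log2 signal of each array minus the control mean of the gene, for CDO1 and the 6 other named genes with the widest gaps, with ND in red to the left of Control in blue and Control_190 circled. Of the 7 genes plotted, Control_190 is the lowest control for CDO1 only, and the CDO1 points of ND lie lower than those of any other gene plotted.

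Controls differed from each other more for CDO1 than for most probe sets of similar brightness. The control SD of 1.02 was at the percentile 98.6 of the 2256 probe sets whose control mean was within 0.5 of it, where the median SD was 0.286. Without Control_190 the CDO1 control mean was 8.58 and its SD 0.56 (n = 9), at the percentile 90.5 of 2182 such probe sets, and the difference was −5.88. Without Control_02 and Control_134 the difference was −5.57. The ND SD of 0.38 was at the percentile 91.7 of 5509 probe sets with a like ND mean, although most ND values lay near background.

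Control_190 also stood apart for other transcripts and was extreme on array measures. Of all arrays it had the lowest median (5.09) and the highest bioB signal (9.78). Its highest tag value (2.41) and its GAPDH 3′ minus 5′ difference (2.20) were also the largest. The part of these measures in its CDO1 signal was not tested. Of 15700 probe sets above background on all controls, Control_190 was set apart by Dixon's criterion as the highest array for 268 and as the lowest for 82. Each of the other 9 controls was the highest for 40 to 125 and the lowest for 29 to 99. It was the lowest control for CDO1 but for none of the 6 other genes with wide gaps. It was above 7 of the other 9 controls for FKBP5, above 8 for TSC22D3 and for USP2, above 9 for PER1, above 4 for KLF9 and above 1 for ARG2. Control_199, the highest for CDO1, was the lowest control for TSC22D3, PER1, ARG2 and KLF9. Across the 10 controls, Pearson's r between CDO1 and these 6 genes ranged from −0.41 for PER1 to 0.09 for ARG2, and Spearman's rho from −0.38 for KLF9 to 0.10 for ARG2. All 6 permutation p-values were at least 0.509 for Pearson's r and at least 0.941 for Spearman's rho after Benjamini-Hochberg adjustment. With Control_190 and Control_199 left out, which lay farthest from the CDO1 median, r ranged from −0.23 for KLF9 to 0.51 for PER1.

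No probe set followed CDO1 across the 10 controls past the threshold. In limma's regression on the CDO1 signal, 0 of 23998 probe sets (0%) had an adjusted p under 0.05, the smallest adjusted p was 0.544, and 1439 had an unadjusted p under 0.05. With ranks of CDO1 in place of its signal the count was also 0, with 862 at an unadjusted p under 0.05, and with a mean trend in the prior it was 0, with 1687. Among the 10 ND arrays it was 0 of 23998 (0%) with 562 at an unadjusted p under 0.05, over CDO1 values mostly at background. Without Control_190, 3 probe sets without a gene symbol passed among the controls, and their r was −0.99, −0.98 and 0.97 without that array, against −0.01, −0.54 and 0.53 with it.

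Of genes above background on all controls, the 6 with the highest r to CDO1 over the 10 controls were RHOJ (0.89), PDZD8 (0.87), ZNF7 (0.85), SLC46A3 (0.85), IFNAR1 (0.82) and SRP54 (0.81). The 6 with the lowest were PRKCB (−0.90), NCK2 (−0.88), WDR34 (−0.88), GDPD5 (−0.87), TNNI3 (−0.87) and ANKRD44 (−0.87). RHOJ is a small GTPase of endothelium, IFNAR1 a subunit of the type I interferon receptor, SRP54 a subunit of the signal recognition particle and PRKCB a protein kinase C. Their adjusted p from the limma regression lay between 0.544 and 0.573, so none passed. Control_190 was the lowest or the highest control for all 12, and without Control_190 and Control_199 r was 0.64 for RHOJ, −0.67 for PRKCB, −0.63 for WDR34 and −0.15 for GDPD5. Spearman's rho over the 10 controls was 0.59 for RHOJ, −0.77 for PRKCB and −0.83 for WDR34. These genes were picked as extremes of r on the same arrays, so no p is given for them singly. The order of these genes thus rests largely on 1 array.

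**Figure D3:**
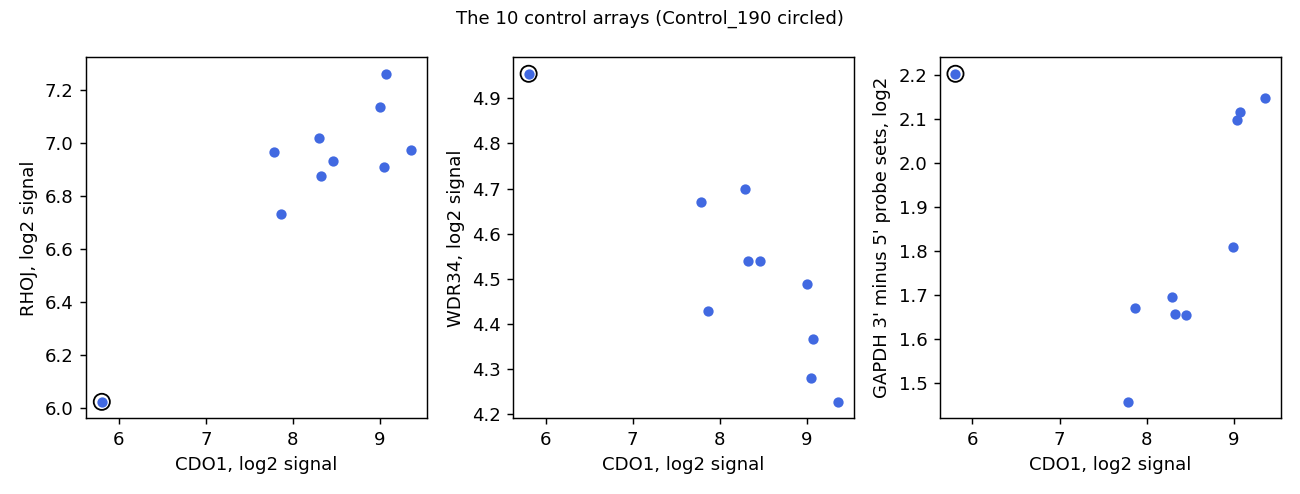
The 10 control arrays, with the CDO1 log2 signal on the horizontal axes and RHOJ, WDR34 and the GAPDH 3′ minus 5′ signal difference on the vertical axes. Control_190, circled, lies apart from the other 9 arrays on the CDO1 axis, which all 3 panels share. On the GAPDH axis it lies at 2.20, close to Control_199 at 2.15.

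The difference between 3′ and 5′ probe sets of GAPDH, which grows as RNA is degraded or copied less fully, averaged 1.67 ± 0.17 in ND and 1.85 ± 0.27 in controls (SD, n = 10 each). In the 10 controls its r with CDO1 was 0.02, but it was 0.91 without Control_190, which was chosen for removal after the values were seen, and 0.87 without Control_190 and Control_199. Control_190 had the largest GAPDH difference of any array, 2.20. For actin the 3′ minus 5′ difference was larger, at 4.01 ± 0.74 in ND and 4.14 ± 0.60 in controls (SD, n = 10 each). Its r with CDO1 was 0.12 with all controls, 0.82 without Control_190 and 0.76 without both. In ND r was 0.01 for GAPDH and 0.03 for actin. Of 10 relations of CDO1 with array measures, none passed, with an adjusted permutation p of 0.984 for Pearson's r of each and at least 0.827 for Spearman's rho. The part of RNA quality in the CDO1 levels of controls was not tested.

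Few other genes of sulfur amino acid metabolism passed the test, and those that did lay in both directions. Of 85 genes listed besides CDO1, 54 had a matched probe set, of which 4 were lower in ND, 2 were higher and 48 did not pass in limma. That is 11.1% called, close to the 9.99% of all 6765 genes (4.55% lower and 5.44% higher). The count was 4 without Control_190 and 7 without Control_02 and Control_134. The median difference was −0.11, against −0.02 over all genes. Of the 54, 37 had a difference below 0 and 17 above 0, against 3673 and 3092 of all genes. None of the 54 separated ND from controls without overlap, which 0.591% of all genes did. The split depends on scaling. With all arrays shifted to the same median, 19 of the 54 passed, 15 lower and 4 higher, while over all probe sets the calls changed to 7728 lower and 1061 higher from 799 lower and 913 higher, and the median of all differences moved to −0.12 from −0.03.

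**Figure D4:**
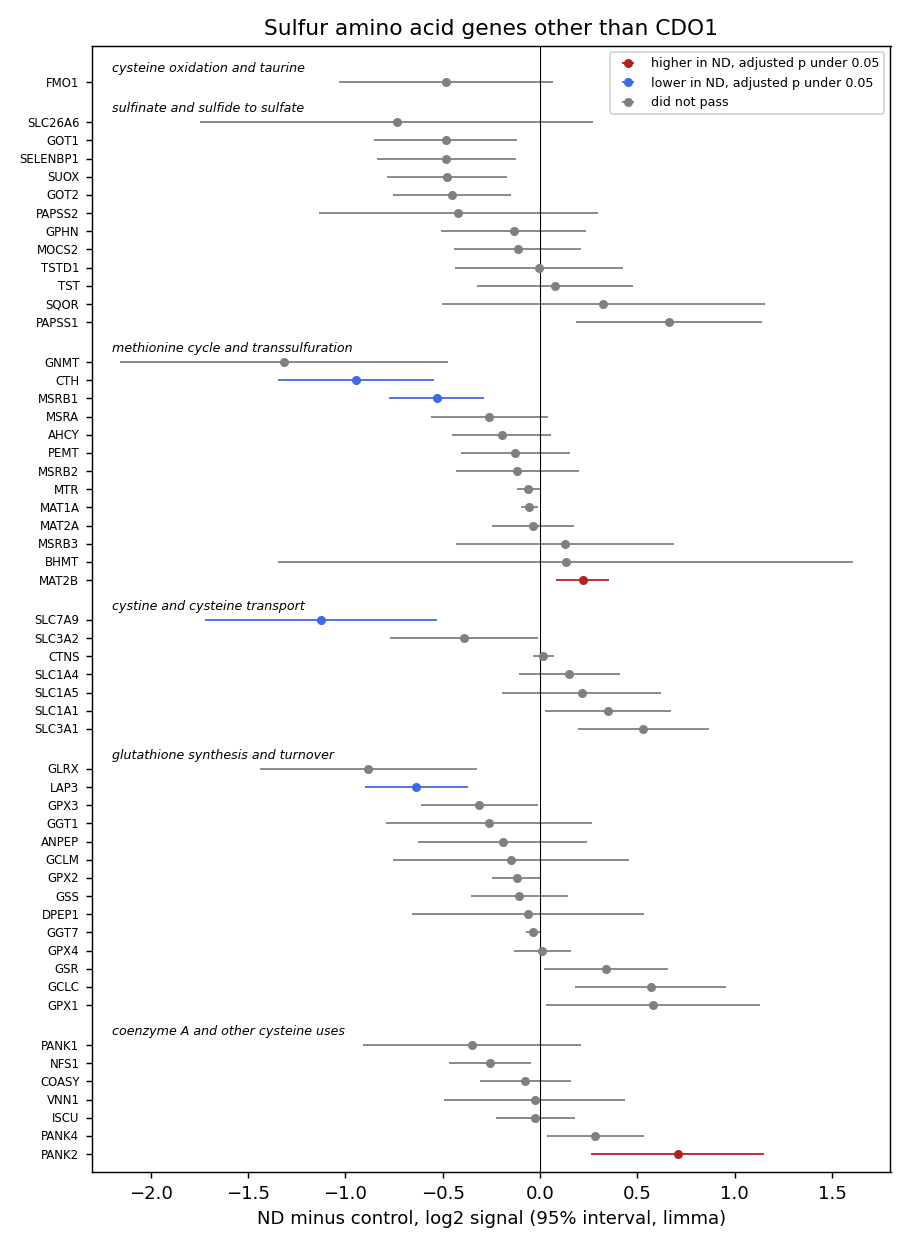
ND minus control difference in log2 signal for the 54 measured sulfur amino acid genes other than CDO1, with 95% intervals from limma, grouped by the 6 lists. The 4 genes lower in ND are CTH, MSRB1, SLC7A9 and LAP3, the 2 higher are MAT2B and PANK2, and the other 48 points did not pass.

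On the supply side of cysteine, CTH fell. It encodes cystathionine gamma-lyase, which releases cysteine from cystathionine. CTH was at 11.5 to 13.2 in ND with a median of 12.9, and at 12.9 to 14.0 in controls with a median of 13.7. ND kidneys were lower but overlapped with controls through Control_199, with a difference of −0.94 ± 0.19 (SE, limma adjusted p = 0.00527) and 10 of 10 ND arrays below the control mean. SLC7A9, the light subunit of the renal cystine transporter, was at 7.94 to 10.5 in ND with a median of 10.1, and at 10.3 to 11.4 in controls with a median of 10.9. It fell by 1.13 ± 0.28 (SE, limma adjusted p = 0.0206), with 10 of 10 ND arrays below the control mean. SLC3A1, the heavy subunit of the same transporter, had a difference of 0.53 (limma adjusted p = 0.0526) and did not pass, though it did in 7 of 29 alternative fits.

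Among the methionine genes listed, MSRB1, a selenoprotein that reduces oxidised methionine, was also lower in ND, with a difference of −0.53 ± 0.12 (SE, limma adjusted p = 0.00888). MAT2B, the regulatory subunit of methionine adenosyltransferase, was higher by 0.22 ± 0.06 (SE, limma adjusted p = 0.0452). Its catalytic partner MAT2A (−0.04) and BHMT, which remethylates homocysteine with betaine (0.13), did not pass. GNMT, a glycine methyltransferase that consumes S-adenosylmethionine, had a difference of −1.31 and did not pass either (limma adjusted p = 0.0537).

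Downstream of CDO1, no measured gene passed in the main fit. FMO1, a flavin monooxygenase that oxidises hypotaurine to taurine in human and mouse, was the only other member of the taurine list with a matched probe set, with a difference of −0.48 (limma adjusted p = 0.213). GOT1 and GOT2, the aspartate aminotransferases that take cysteine sulfinate to the precursor of pyruvate and sulfite, had differences of −0.49 and −0.45 (limma adjusted p = 0.0982 and 0.0635). SUOX, the sulfite oxidase, had a difference of −0.48 (limma adjusted p = 0.056). Of 29 alternative fits, GOT1 passed in 1, GOT2 in 7 and SUOX in 6. The 12 measured genes from sulfinate and sulfide to sulfate had a median of −0.28, with 0 called by limma at the threshold, beside 9.99% of all genes. SELENBP1, a methanethiol oxidase, had a difference of −0.48 (limma adjusted p = 0.0919). PAPSS1, which makes activated sulfate, had 0.66 (limma adjusted p = 0.0835), with 10 of 10 ND arrays above the control mean. CSAD, ADO, GADL1, CBS, SLC7A11 and SLC6A6 had no matched probe set and were not analysed here.

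Of the pathways that share cysteine with CDO1, the 14 measured glutathione genes had 1 call (7.14%, beside 9.99% of all genes), LAP3, a leucine aminopeptidase that can cleave cysteinylglycine. LAP3 had a difference of −0.63 ± 0.13 (SE, limma adjusted p = 0.00476), and a second probe set had −0.82. GCLC and GCLM, the subunits of the enzyme that joins glutamate to cysteine, had differences of 0.57 and −0.15 and did not pass (limma adjusted p = 0.0697 and 0.729). Of 29 alternative fits, GCLC passed in 7 and GCLM in 0. Another probe set of GCLC had 0.84 (limma adjusted p = 0.0464), so its probe sets differ in the call. The same held for GLRX, a glutaredoxin, with −0.88 for its brightest probe set (limma adjusted p = 0.0505) and −1.40 for another (limma adjusted p = 0.0075). Of 7 coenzyme A and other cysteine genes, 1 passed (14.3%), PANK2, a pantothenate kinase, which was higher by 0.71 ± 0.21 (SE, limma adjusted p = 0.0498). The calls of MAT2B and PANK2 were lost in 16 and 17 of the 20 fits that each left out 1 array.

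With a term for animal numbers up to 100, LAP3 alone of the 54 passed (limma adjusted p = 0.0442), and CTH had a difference of −0.87 (limma adjusted p = 0.0772). Over all 23999 probe sets, 505 passed with the term and 1712 without it. The term overlaps with group, as 7 ND animals and 1 control were numbered up to 100. Among animals with the number of Control_184 or a higher one, 3 ND and 5 controls, 0 of the 54 passed, beside 57 of the 23999 probe sets. The CDO1 difference was −5.61 with the term and −5.59 in those animals, where ND averaged 2.52 ± 0.19 and controls 8.11 ± 1.41 (SD, n = 3 and n = 5).

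Across the 10 controls, the 10 measured partner genes had r with CDO1 from −0.48 for CTH to 0.38 for GCLC, each with a Benjamini-Hochberg adjusted permutation p of 0.830. Spearman's rho ranged from −0.62 for SUOX to 0.42 for MAT2A, with adjusted permutation p-values of at least 0.480. Without Control_190 and Control_199, r was −0.29 for CTH, −0.18 for GCLC and −0.69 for SUOX.

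Marker genes of tissues that could carry CDO1 RNA were set beside it. Of 20 proximal tubule genes, 11 were measured, all above background, and 3 were lower in ND (27.3%, beside 4.55% of all genes). These were HNF4A, a nuclear receptor of tubule and liver cells (−0.84, limma adjusted p = 0.0174), PCK1, a gluconeogenic enzyme (−0.66, limma adjusted p = 0.0222), and SLC2A2, a basolateral glucose transporter (−1.82, limma adjusted p = 0.0104). The other 8 did not pass. Their differences were 0.46 for SLC5A1, 0.25 for LRP2, −0.03 for AQP1 and −0.20 for MIOX. For SLC22A8 the difference was −0.23, for FBP1 −0.27, for SLC4A4 −0.32 and for SLC22A6 −0.50. The summed signal of all 11 measured tubule genes, on the log2 scale, ranged from 15.5 to 16.7 in ND and from 16.4 to 16.8 in controls. PCK1 is part of this sum. HNF4A did not overlap between the groups, as was so for 0.591% of all genes, at 10.6 to 12.59 in ND and 12.61 to 13.1 in controls. With the term for animal number all 3 calls were lost, at limma adjusted p = 0.242 for HNF4A (−0.64), 0.277 for PCK1 (−0.50) and 0.0928 for SLC2A2 (−1.80). Over all 23999 probe sets, 505 passed with that term and 1712 without it. The call of PCK1 was also lost without Control_02 and Control_134 (limma adjusted p = 0.056).

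Of 15 fat genes, 12 were measured. The adipocyte markers ADIPOQ, LIPE, RETN and CEBPA were at background on all 20 arrays, PPARG was above it on 2 ND arrays and no control, and the other 7 were above it on all 20. Of these, leptin (LEP) was at 3.06 to 3.16 in ND and 3.11 to 3.20 in controls, CIDEA at 4.58 to 5.91 in ND and 4.79 to 6.08 in controls, and LPL at 4.63 to 6.73 in ND and 4.83 to 6.54 in controls. FABP4, a fatty acid binding protein of adipocytes and capillary endothelium, was lower in ND, with a difference of −0.89 (limma adjusted p = 0.016), as was PCK1, which is 16.7% of the 12 called, beside 9.99% of all genes. The summed fat signal ranged from 13.3 to 14.6 in ND and from 14.3 to 14.9 in controls, and without PCK1 from 8.88 to 11.4 in ND and from 9.35 to 11.9 in controls. Of 9 adrenal cortex genes, 7 were measured and 0 passed in limma. Of these, the steroid synthesis genes STAR, CYP11A1 and CYP17A1 were at background on all arrays. MC2R, the receptor for ACTH, was above it on all 20, at 3.86 to 4.0 in ND and 3.95 to 4.12 in controls, and HSD3B1 on 5 ND and 10 control arrays. LEP and MC2R were nearly flat across arrays, with an SD in each group of 0.03 for LEP and 0.05 for MC2R. A signal above the cut does not by itself show that their transcripts were present. NR5A1 was above background on 1 array of each group. The summed adrenal signal ranged from 10.5 to 11.3 in ND and from 10.7 to 11.1 in controls, nearly all of it from FDX1, a ferredoxin of mitochondria in many tissues. Without FDX1 it ranged from 5.28 to 5.42 in ND and from 5.34 to 5.46 in controls. The part of any of these tissues in the CDO1 difference was not tested.

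None of the measured genes beside CDO1 in the pig genome had a difference near that of CDO1. As CDO1 was chosen for its wide difference, few probe sets anywhere came near it. Of the 10 nearest genes on each side in the RefSeq gene table of Sscrofa11.1, a window set after the values were seen, 8 had a matched probe set and 1 was lower in ND, where 4.55% of all genes were. That was TNFAIP8, a regulator of cell death, with a difference of −0.77 (limma adjusted p = 0.00663). The other 7 did not pass, and among them TMED7, of vesicle traffic, had −0.25 and the autophagy gene ATG12 −0.0038.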

How the data were processed

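The deposited table holds a signal for every probe set on every array, taken as log2 from its range, 0.88 to 16.2. Per the labels' protocols, TRIzol RNA (250 ng) was made into biotin-labelled cRNA. Background correction, summarization and normalization are not given in the sources used here. Of 24123 probe sets, 124 controls were left out. Of the remaining 23999, 10069 had 1 gene symbol in the platform annotation, 198 had several (not named) and 13732 had none. Each gene was read by its brightest probe set, on average over the 20 arrays. Groups came from the titles. Although 2 specimens per animal are described, every animal number has 1 array, and arrays were treated as animals.

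ND and control were compared with limma 3.58.1 (lmFit, eBayes, no covariate) in R 4.3.3, with Benjamini-Hochberg adjustment over all 23999 probe sets and a threshold of 0.05. The same tool regressed probe sets on CDO1 within a group. Correlations used two-sided permutation tests (100000 resamples, scipy 1.17.1). The fits were tested on simulated data. Alternatives were other scalings, filters, thresholds, weights, a term for animal number, and leaving out each array.

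CDO1 and the lists were chosen with earlier results of these data known. Genes named were CDO1, 16 partner genes, up to 4 called members per list, the 6 highest and 6 lowest correlations with CDO1 and the 6 widest gaps. GNMT, GLRX, SELENBP1, PAPSS1, the tissue markers that did not pass and the genes beside CDO1 are not under this rule, and were added with their values in view. The number of arrays limits the precision.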

Additional observations from a re-analysis of the deposited data

Results flagged for a closer look

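Of 42 groups examined, 10 arrays each for 21 genes, 8 had a lowest array set apart from the rest by more than Dixon's 95% limit. Chance flags about 1 in 20 groups. CDO1 itself was at 5.81 in Control_190, with the other 9 controls at 7.78 to 9.36.

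ND_47 was the array set apart in ND for 4 genes. SUOX was at 8.71 there and at 9.67 to 10.2 in the other ND arrays, CTH at 11.5 against 12.3 to 13.2, SLC3A1 at 10.9 against 11.6 to 12.3, and BHMT at 6.51 against 9.62 to 12.6. The CDO1 signal of this array, 2.81, lay within the ND range.

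Control_199, which had the highest CDO1 signal, was the array set apart among controls for 3 genes. CTH was at 12.9 there and at 13.5 to 14.0 in the other controls, PER1 at 9.94 against 10.4 to 10.9, and KLF9 at 12.2 against 13.2 to 13.9.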

How the results depend on the processing

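The CDO1 difference stayed between −5.88 and −5.40 under every alternative run, with −5.88 to −5.49 over the 20 fits that left out 1 array, −5.57 without Control_02 and Control_134 (chosen after seeing the data) and −5.69 after median scaling. The count of probe sets called, 1712 (7.13%), was 619 at an adjusted p under 0.01, 8789 after median scaling, 505 with a term for animal number and 57 among animals from the number of Control_184 upward. Of the 6 sulfur amino acid genes called, the count was 3 at 0.01, 19 after median scaling, 11 when probe sets were kept only if above background on at least 10 arrays, 10 with array weights, 1 with the number term and 0 among those same animals. It was 9 without ND_47, and 4 to 9 over all fits without 1 array. The count of probe sets following CDO1 among controls was 0 to 3 over the fits without 1 array, 3 of them without Control_190. Signs turned for GCLM in those animals (0.20), for BHMT with the number term (−0.12) and over the fits without 1 array (−0.045 to 0.63), and for MAT2A after quantile normalization (0.0041) and over the fits without 1 array (−0.075 to 0.0056). The cause of these changes was not tested. No paired analysis was possible because ND and control animals share no numbers in the labels. CDO1 signals under 2.79 are bounds at most, so order among ND arrays at that level is not interpretable.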
